A study of Arabidopsis thaliana with 8 samples.

Results

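The circadian clock and photoperiod genes described here are 35 of the 33557 Arabidopsis genes in the deposited tables. They were taken by locus code from a list of the central clock loops and of the day-length pathway that leads to CONSTANS. All 35 were found in every library. RNA was sequenced from whole seedlings aged 7 days, raised at 22 °C in long days of 16 h light and 8 h dark on Murashige and Skoog plates, after the seeds had spent 3 days at 4 °C. There were 4 groups of 2 libraries, given as biological replicates: Col-0 as the wild type, the mutants dek3-2 and dek4-2 each alone, and the double mutant dek3-2 dek4-2, known as dd-2. DEK3 and DEK4 encode DEK-domain chromatin proteins. The labels give no agent or transgene for any group, do not describe the lesions, and do not state the hour at which seedlings were collected.

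The plant clock is a set of transcription factors that repress or activate each other in turn over the day. CCA1 and LHY, MYB-like factors made around dawn, repress evening genes; the PSEUDO-RESPONSE REGULATORS follow in sequence from morning to evening and repress CCA1 and LHY; and the evening complex of ELF3, ELF4 and LUX represses daytime genes at night. GIGANTEA and FKF1 link the clock to day length by removing the CDF repressors from the gene of CONSTANS, the activator of the florigen gene FT in long days. Because these transcripts normally rise and fall within a day, the genes were set apart here by the usual time of their peak, as textbook background: 18 morning genes, 2 midday genes, 11 evening genes and 4 without an assigned time.

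Values are FPKM, fragment numbers scaled to gene length and library size, so levels of different genes can be compared per length. Summed FPKM ran from 839267 to 873796 per library. The depth relative to the mean library, read from the spacing of low values, was 0.915 and 0.799 in dd-2 and 0.989 to 1.12 in the others. Factors for median-of-ratios scaling were 1.036 and 1.059 in dd-2 and 0.918 to 1.026 in the others. Depth and scale thus differ along with the dd-2 genotype, and the 2 cannot be told apart from it. DEK3 stood at 13.3 to 19.9 FPKM in the 4 libraries carrying dek3-2 and at 47.3 to 80.7 in the other 4, and DEK4 at 10.3 to 18.4 in the 4 carrying dek4-2 and at 23.7 to 38.0 in the other 4, so both genes were lower in each library labelled as mutant but still detected. Markers of mesophyll (3 of 3 genes), guard cells (2 of 2), root endodermis (2 of 2), root hairs (2 of 2) and the root ER body gene PYK10 all reached a mean of 1 FPKM, whereas the 3 flower markers AP1, AP3 and AG summed to 0.446 to 0.755 FPKM and none reached it. Seed storage genes summed to 499.6 FPKM in dek3-2 replicate 1 and to 45.6 in dd-2 replicate 2, against 0.757 to 8.47 in the other 6 libraries. Their part in the values of the members was not tested. Differences in the numbers of cells of a type and in RNA per cell cannot be told apart in such bulk samples.

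The 8 libraries shared one profile of levels over the clock genes, with evening genes mostly high and dawn genes low. No time course was taken, so levels compared between genes do not show the phase of the clock. The median of the gene means was 48.9 FPKM over the 11 evening genes, which ran from 9.41 for GI to 1719 for GRP7, and 3.71 over the 18 morning genes. CCA1 (mean 0.602), LNK3 (0.507) and PRR9 (0.362), all morning genes, were the 3 members with the lowest levels. LHY was the lowest of the 32 members that reached a mean of 1 FPKM and so entered the tests. TOC1, the evening partner of CCA1 and LHY in the first described loop of the clock, exceeded LHY by 40.7-fold (dek3-2 replicate 1) to 61.9-fold (dd-2 replicate 2). The order was not complete, since the morning-assigned genes RVE2 (mean 118 FPKM), RVE4 (61.6) and COL1 (16.0) stood among the evening genes. GI, an evening gene whose transcript usually peaks before dusk, stood near the level of PRR5 (10.3), and adjacent genes in this order overlapped over the libraries (GI from 6.35 to 13.04 and RVE6 from 8.50 to 10.7).

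**Figure D1:**
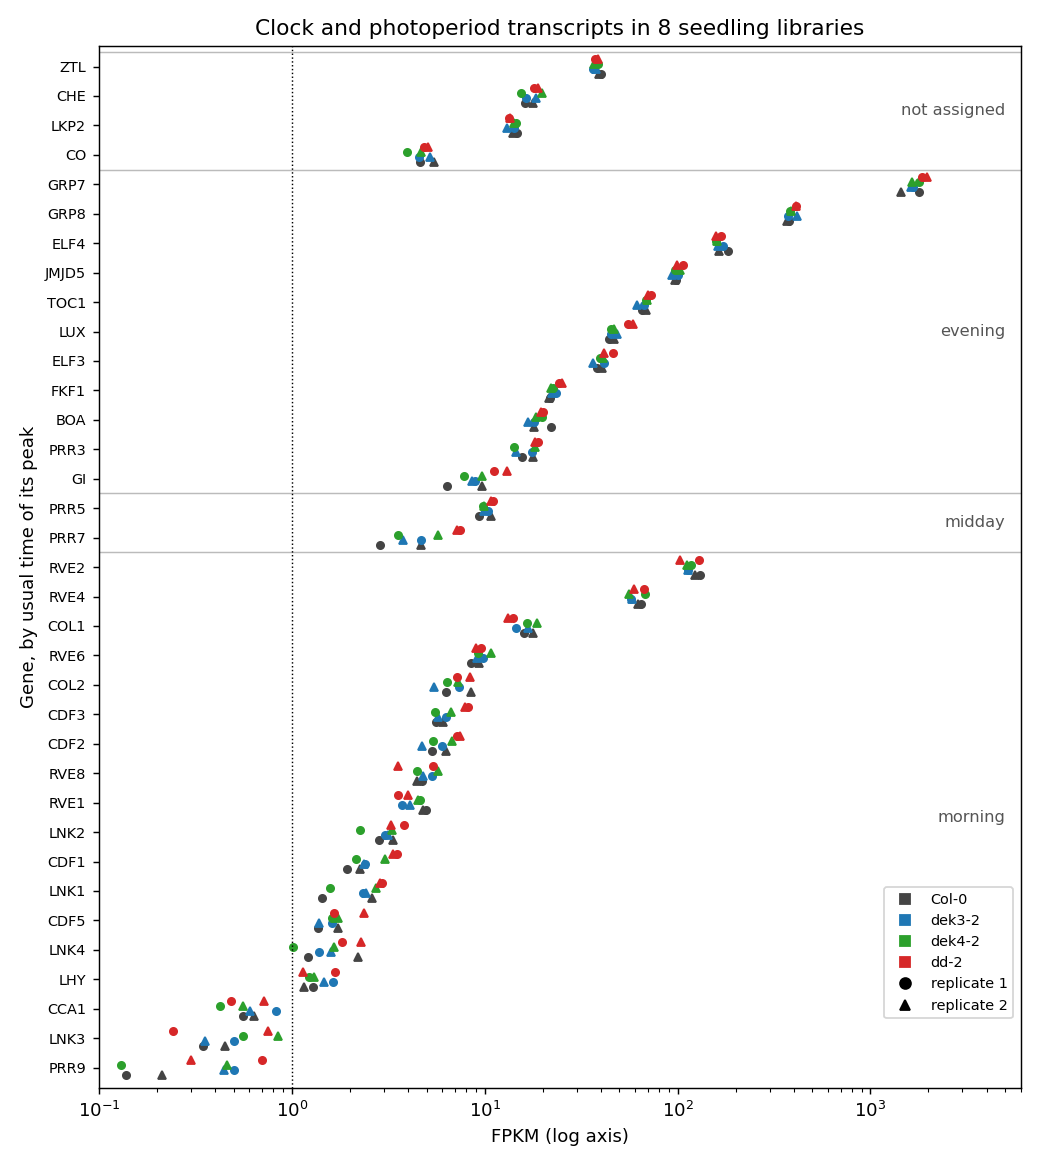
FPKM of the 35 genes (log axis) in each of the 8 libraries, grouped by the usual time of the peak, with colour for genotype and symbol for replicate; the dotted line marks 1 FPKM. Evening genes sit mostly above 10 FPKM and morning genes mostly below it, with RVE2, RVE4 and COL1 as high exceptions, in all 4 genotypes.

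The sequences before some of the gene starts carry motifs through which clock or light-signalling factors are known to act. A few are shown because 6 of the 11 evening genes hold the same one. In the 300 bp upstream of the annotated start, on either strand, the evening element AAAATATCT, a site bound by CCA1, LHY and related MYB factors, was found in 7 of the 35 genes (20.0 percent), against 2.79 percent of 27443 protein-coding promoters of the same length. It was in 6 of 11 evening genes (TOC1, LUX, BOA, FKF1, GRP7 and GRP8) and in 1 of 18 morning genes (COL2), and GRP7 held it 3 times. The evening genes ELF4 (mean 166 FPKM) and JMJD5 (99.4), also high, held none in this window. The window holds exons of 3 other genes in COL2 and of 1 in GRP7. The G-box CACGTG, a palindrome bound by basic helix-loop-helix and bZIP factors of light signalling, was in 10 of 35 genes (28.6 percent, against 7.08 percent of all), of which 7 were morning genes and 2 were LUX and BOA. The CCA1-binding site AAAAATCT was in 4 of 35 (11.4 percent, against 7.95 percent), namely CDF5, LKP2, RVE2 and RVE6. No gene held both of these MYB motifs in this window, so no matches overlapped. With 1000 bp upstream, ELF4, GI and PRR5 also held the evening element, giving 10 of 35 against 7.24 percent. A match describes the letters only. Below are 300 bp before the start of 4 genes with an evening element and of CCA1 and PRR7 with a G-box but no evening element, read 5′ to 3′ on the strand of the gene from the RefSeq assembly TAIR10.1, with matches in capitals (AGATATTTT is the evening element on the other strand).
LUX (chr3:17182742-17183041, plus strand): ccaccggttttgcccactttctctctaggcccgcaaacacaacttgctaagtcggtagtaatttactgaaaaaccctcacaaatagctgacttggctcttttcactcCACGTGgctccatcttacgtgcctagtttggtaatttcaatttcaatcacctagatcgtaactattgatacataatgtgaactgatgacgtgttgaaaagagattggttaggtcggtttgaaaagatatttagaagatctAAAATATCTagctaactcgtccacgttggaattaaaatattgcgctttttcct
TOC1 (chr5:24674663-24674962, plus strand): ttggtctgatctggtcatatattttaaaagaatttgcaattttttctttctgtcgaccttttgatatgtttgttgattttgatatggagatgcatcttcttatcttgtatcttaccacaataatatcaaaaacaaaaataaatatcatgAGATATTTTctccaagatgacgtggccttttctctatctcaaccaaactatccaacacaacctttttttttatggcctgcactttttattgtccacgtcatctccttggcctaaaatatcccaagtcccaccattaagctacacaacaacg
FKF1 (chr1:25508339-25508638, plus strand): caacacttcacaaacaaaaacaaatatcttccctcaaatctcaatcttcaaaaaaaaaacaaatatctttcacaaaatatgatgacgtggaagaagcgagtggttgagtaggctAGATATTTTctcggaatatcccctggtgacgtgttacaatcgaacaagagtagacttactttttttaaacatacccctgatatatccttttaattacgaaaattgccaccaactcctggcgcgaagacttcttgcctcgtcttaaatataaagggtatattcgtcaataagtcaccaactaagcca
BOA (chr5:24003588-24003887, plus strand): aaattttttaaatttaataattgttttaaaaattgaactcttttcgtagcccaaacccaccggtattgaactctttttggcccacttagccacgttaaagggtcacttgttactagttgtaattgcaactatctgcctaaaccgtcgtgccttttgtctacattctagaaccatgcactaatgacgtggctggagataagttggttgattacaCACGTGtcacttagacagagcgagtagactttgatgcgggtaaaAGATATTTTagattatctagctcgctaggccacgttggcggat
CCA1 (chr2:19245291-19245590, plus strand): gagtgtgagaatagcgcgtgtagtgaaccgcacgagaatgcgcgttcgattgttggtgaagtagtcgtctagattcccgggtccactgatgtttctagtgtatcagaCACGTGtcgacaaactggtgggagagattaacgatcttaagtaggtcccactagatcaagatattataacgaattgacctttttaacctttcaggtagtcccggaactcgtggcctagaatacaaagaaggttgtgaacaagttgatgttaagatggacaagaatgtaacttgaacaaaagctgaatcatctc
PRR7 (chr5:642031-642330, minus strand): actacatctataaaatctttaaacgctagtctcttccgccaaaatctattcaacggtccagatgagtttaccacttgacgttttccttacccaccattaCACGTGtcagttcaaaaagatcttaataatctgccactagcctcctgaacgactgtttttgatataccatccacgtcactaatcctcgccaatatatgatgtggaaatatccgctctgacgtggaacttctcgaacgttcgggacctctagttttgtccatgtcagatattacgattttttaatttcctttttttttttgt
In LUX and BOA, close homologues that encode GARP-family DNA-binding proteins, an evening element and a G-box occur together, at -53 and -193 from the start in LUX and at -43 and -87 in BOA.

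**Figure D2:**
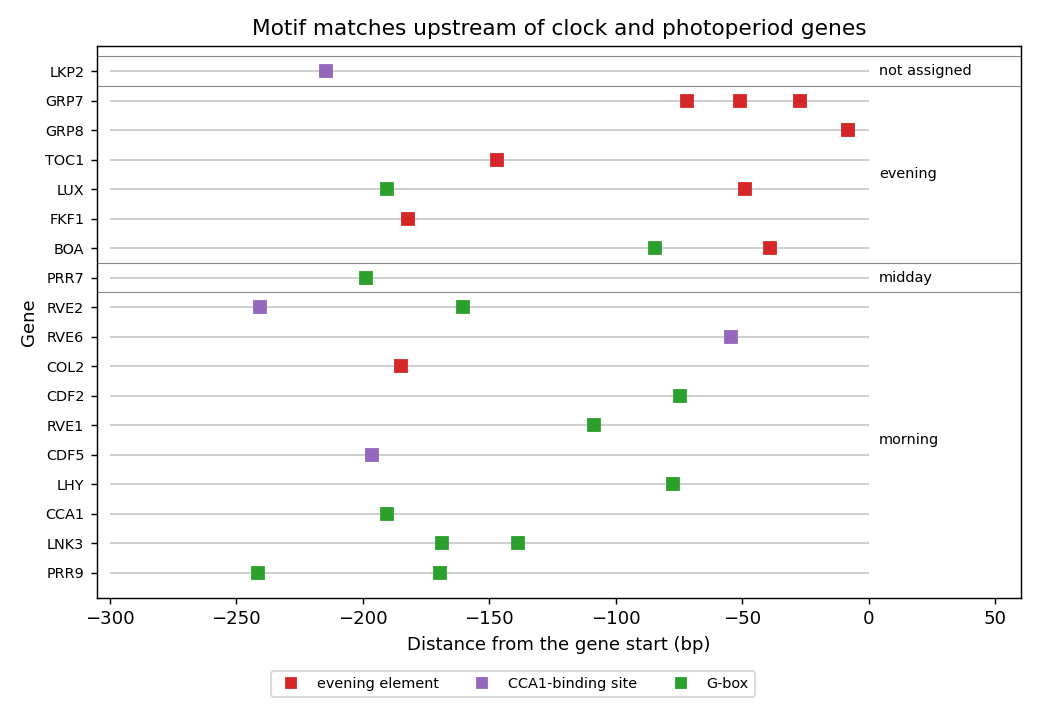
Position of each match of 3 motifs in the 300 bp before the start of the genes with at least 1 match, with distance in bp on the x axis and one row per gene, grouped by the usual time of the peak. Evening elements (red) mark 6 evening genes and COL2, and G-boxes (green) lie mostly in morning genes.

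The double mutant was set against Col-0 to ask which transcripts differ when both DEK genes are mutated. The day-phased PRR7 had the largest difference, from a mean of 3.79 to 7.34 FPKM, followed by GI, the repressors CDF1 and CDF3, LNK1 and LUX, and all of these lay higher in both dd-2 libraries than in the 6 other libraries; COL1 lay lower in both. None of these differences passed the test over all genes. With limma on log2(FPKM + 1), 0 of the 32 tested members had an adjusted p below 0.05, where 0.252 percent of all 19017 tested genes did, and the lowest adjusted p was 0.104 for LUX. At an unadjusted p below 0.05 there were 8 of 32 (18.6 percent of all tested genes), 6 of them higher (12.7 percent) and 2 lower (5.85 percent). Median-of-ratios scaling gave 5 higher and 2 lower, while the split over all genes turned from 2417 higher and 1112 lower to 1261 higher and 1853 lower. The groups did not overlap for 15 members that were higher in dd-2 (background 38 percent of genes) and for 4 that were lower (15.3 percent). The median log2 difference of the members was 0.12, beside 0.08 over all genes tested, and 12529 of the 19017 genes lay above 0. Without Col-0 replicate 1 the members' median was 0.06 beside 0.06 over all genes, and without Col-0 replicate 2 it was 0.15 beside 0.09. It was 0.09 beside 0.09 without dd-2 replicate 1, and 0.13 beside 0.07 without dd-2 replicate 2. After median-of-ratios scaling, where that overall median was 0.00 and the members' 0.04, 9 members were higher without overlap (background 22.7 percent) and 6 lower (25.7 percent).

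Against the 6 other libraries together, 12 members were higher in both dd-2 libraries, where 17.1 percent of all genes were: PRR7, PRR3, TOC1, ELF3, LUX, LNK1, FKF1, GI, CDF1, CDF2, CDF3 and GRP7. Only COL1 was lower in both (background 7.28 percent). After median-of-ratios scaling PRR7, LUX, GI, CDF1, CDF2 and CDF3 remained (background 6.77 percent), and LKP2 joined COL1 among those lower (14.7 percent). Of the 11 evening genes 9 lay above 0 in dd-2 against Col-0 (8 under that scaling), of the 15 tested morning genes 10 (9 under that scaling), and of the 2 midday genes both. The median log2 differences of the morning and the evening genes had the same sign, 0.10 and 0.15 (0.06 for both under that scaling). The morning median rested on the Col-0 libraries: it was 0.01, with 8 of 15 above 0, without Col-0 replicate 1 and 0.24 without Col-0 replicate 2, while the evening median was 0.14 and 0.13. The 95 percent interval of the difference lay within 2-fold either way for 31 of the 32 members and within 1.5-fold for 24; PRR7 was the exception at 2-fold, with an interval from 0.29 to 1.36 on the log2 scale. Root endodermis markers summed to 15.9 and 17.6 FPKM in dd-2 and to 7.83 to 10.6 in the other libraries, and mesophyll markers to 15465 and 15985 in dd-2 and to 17641 to 21913 in the others, with none of these genes at 0. The mesophyll sum was led by RBCS1A, while CAB1 was at 2547 and 2449 in dd-2 and at 1730 to 2739 in the others. PYK10 was at 1439 and 1197 in dd-2 and at 870.4 to 1034 in the others. Root hair markers summed to 6.73 and 8.54 in dd-2 and to 2.82 to 7.23 in the others, with overlap. Guard cell markers also overlapped, at 44.0 and 45.4 in dd-2 and at 39.1 to 53.4 in the others. For all of these markers, their part in these differences was not tested.

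**Figure D3:**
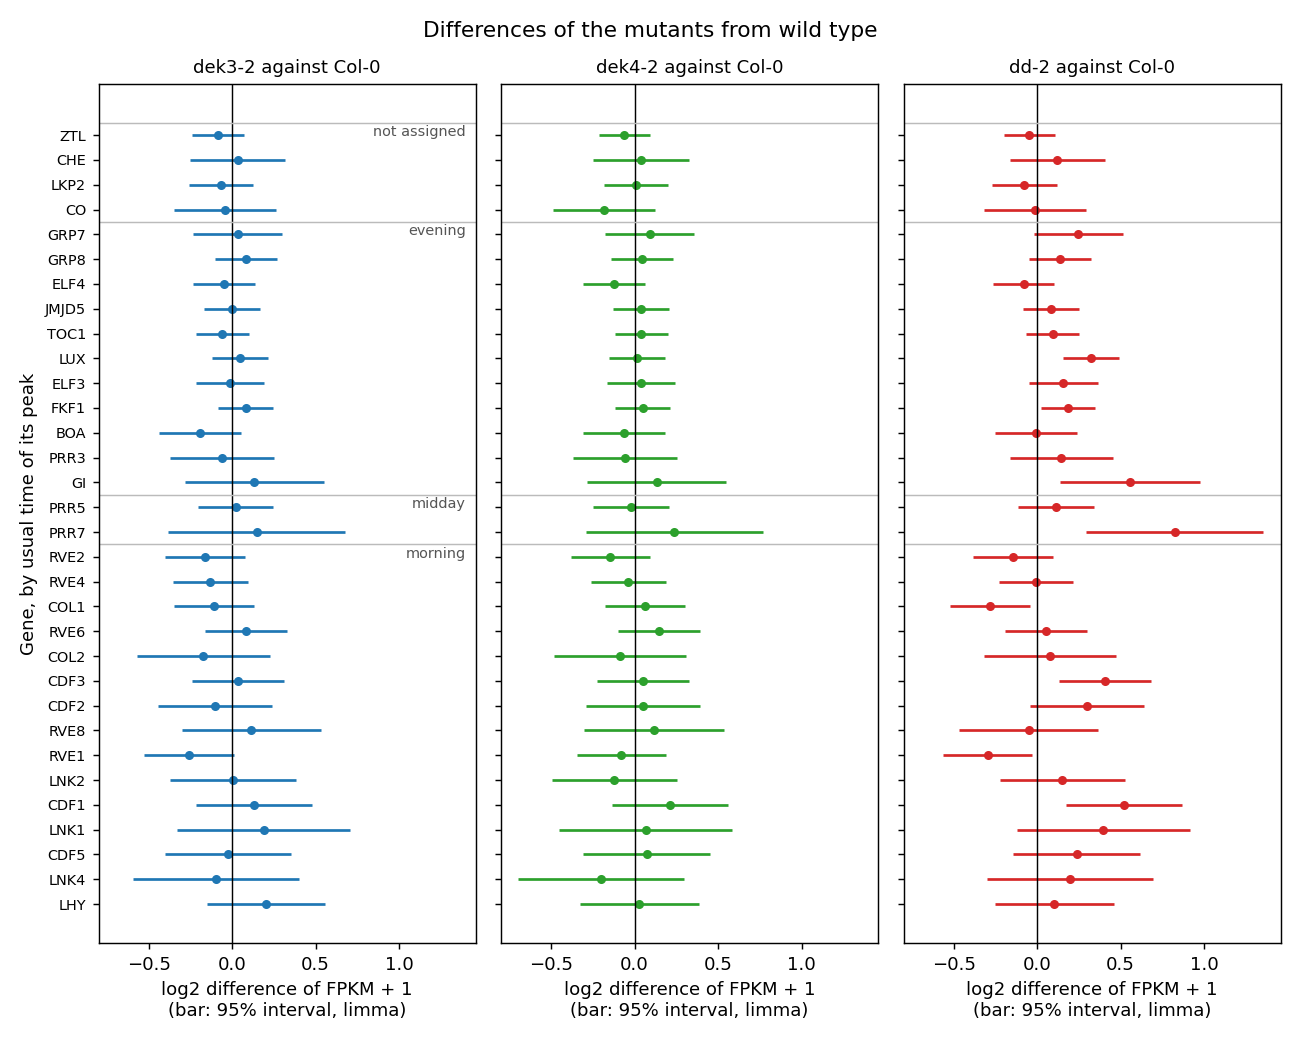
Log2 difference of FPKM + 1 for the 32 tested genes in each mutant against Col-0, with points for the limma estimate and bars for its 95 percent interval, grouped by the usual time of the peak. In the dek3-2 and dek4-2 panels the intervals include 0 for every gene, and in the dd-2 panel LUX, GI, PRR7, CDF1, CDF3 and FKF1 lie above 0 and COL1 and RVE1 below it, none with an adjusted p below 0.05.

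The morning MYB genes CCA1 and LHY form the dawn arm of the central loop. CCA1 (AT2G46830) was at 0.560 and 0.635 FPKM in the Col-0 libraries, 0.827 and 0.606 in dek3-2, 0.423 and 0.557 in dek4-2, and 0.487 and 0.722 in dd-2. It rested on about 33.2 to 66.9 fragments per library, a counting error of about 15.3 percent, and all groups overlapped with Col-0 except dek4-2, whose libraries lay just below it. LHY (AT1G01060) was at 1.29 and 1.16 FPKM in Col-0, 1.64 and 1.48 in dek3-2, 1.23 and 1.30 in dek4-2, and 1.67 and 1.14 in dd-2. The dek3-2 libraries were above both Col-0 libraries, a log2 difference of 0.20 (95 percent interval -0.15 to 0.56, limma adjusted p = 1), and dd-2 spanned the Col-0 range (0.10, adjusted p = 0.730).

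The PSEUDO-RESPONSE REGULATORS are repressors expressed in the sequence PRR9, PRR7, PRR5, PRR3 (AT5G60100) and TOC1 (AT5G61380) through the day. Their levels followed that sequence upward in every genotype, with means over the 8 libraries of 0.362, 5.0, 10.3, 16.9 and 68.0 FPKM. This compares genes and not times of day. PRR7 (AT5G02810) was at 2.88 and 4.70 in Col-0, 4.68 and 3.78 in dek3-2, 3.56 and 5.74 in dek4-2, and 7.48 and 7.20 in dd-2. Both dd-2 libraries were the highest of the 8, while each of the other genotypes spread over a range wider than that within dd-2. The log2 difference from Col-0 was 0.83 ± 0.23 (SE, limma adjusted p = 0.142), and it was 0.55 without Col-0 replicate 1 and 1.10 without Col-0 replicate 2. Set against TOC1 within each library, PRR7 stood at 0.0441 and 0.0684 in Col-0 and at 0.103 and 0.102 in dd-2. PRR9 (AT2G46790) was listed at 0.139 and 0.213 FPKM in Col-0, 0.500 and 0.447 in dek3-2, 0.130 and 0.460 in dek4-2, and 0.702 and 0.301 in dd-2, on about 8.0 to 36.4 fragments, and it was not tested. TOC1, which represses CCA1 and LHY, was at 65.4 and 68.7 FPKM in Col-0, 66.7 and 62.0 in dek3-2, 68.7 and 69.2 in dek4-2, and 72.6 and 70.5 in dd-2. The dd-2 libraries were the highest by a small margin, though not after median-of-ratios scaling, with a log2 difference of 0.09 (interval -0.07 to 0.25, adjusted p = 0.477). PRR5 (AT5G24470) ran from 9.30 to 11.1 and PRR3 from 14.2 to 19.0 FPKM, and dd-2 replicate 1 was the highest library for both.

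The evening complex holds ELF3 (AT2G25930), a scaffold, ELF4, a small protein that helps it bind, and LUX, the DNA-binding subunit, for which BOA can stand in. LUX (AT3G46640) was at 44.4 and 46.6 FPKM in Col-0, 45.4 and 48.8 in dek3-2, 45.1 and 46.7 in dek4-2, and 55.2 and 59.0 in dd-2. Both dd-2 libraries were clear of the other 6, and the difference of 0.32 ± 0.07 on the log2 scale (interval 0.15 to 0.49) had the lowest adjusted p of the 32 members, 0.104, which was 0.235 after median-of-ratios scaling. LUX was also higher in dd-2 than in dek3-2 (0.27) and dek4-2 (0.31), with adjusted p of 0.280 and 0.250. Its homologue BOA (AT5G59570) was at 22.2 and 18.0 in Col-0, 18.0 and 16.7 in dek3-2, 19.9 and 18.4 in dek4-2, and 20.1 and 19.7 in dd-2, and there dd-2 lay between the Col-0 libraries. In dek3-2 BOA had a log2 difference of -0.19 (limma adjusted p = 1), with 1 library just above the lower Col-0 library. The ratio of LUX to BOA was 2.30 ± 0.420 (SD, n = 2) in Col-0 and 2.87 ± 0.179 in dd-2. ELF4 (AT2G40080), the most abundant of the complex, was at 182 and 164 FPKM in Col-0, 172 and 163 in dek3-2, 158 and 159 in dek4-2, and 168 and 159 in dd-2. Its dek4-2 libraries lay below both Col-0 libraries (log2 difference -0.12, interval -0.31 to 0.06, adjusted p = 1). ELF3, in a locus that the files merge with the opposite-strand gene AT2G25940, ran from 36.4 to 46.3 FPKM.

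**Figure D4:**
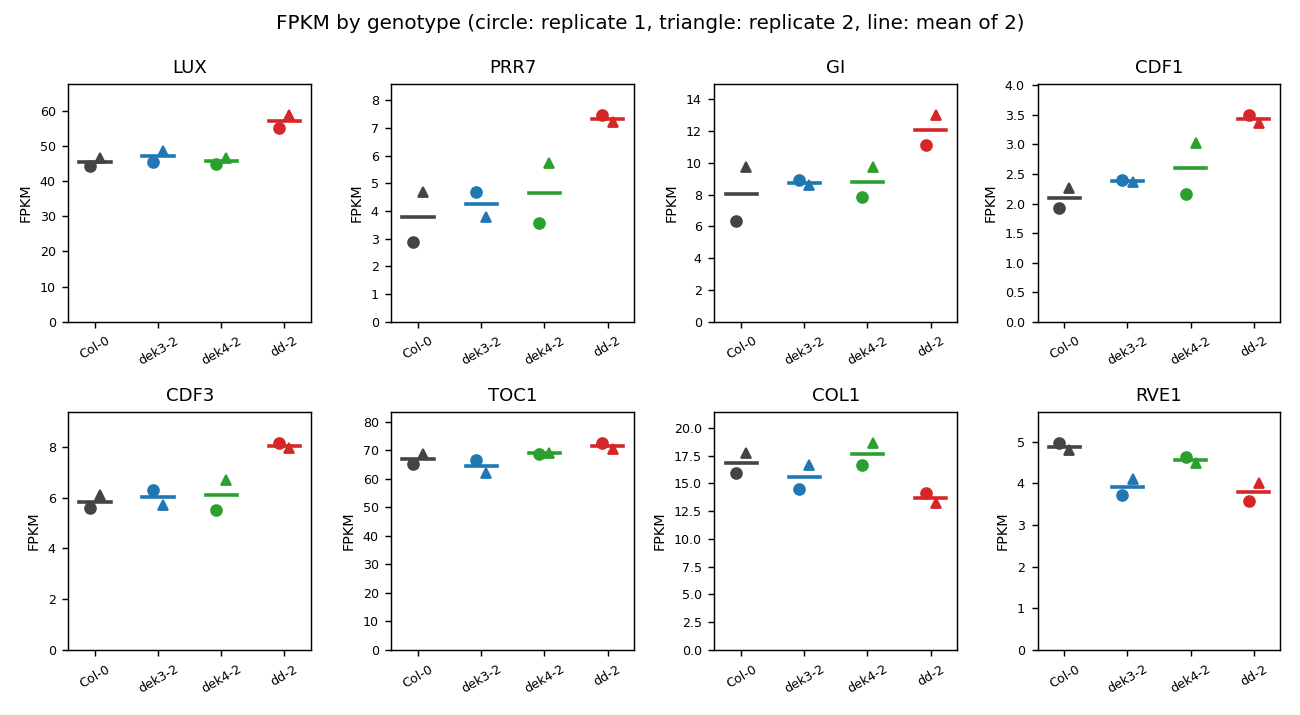
FPKM of 8 genes by genotype on axes from 0, with a circle for replicate 1, a triangle for replicate 2 and a line for the mean of 2. LUX, PRR7, GI, CDF1 and CDF3 are higher in both dd-2 libraries than in any other, TOC1 only slightly so on the deposited scale, COL1 is lower in both, and RVE1 is lower in dek3-2 and dd-2.

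The RVE genes encode MYB-like relatives of CCA1, of which RVE4, RVE6 and RVE8 (AT3G09600) activate evening genes together with the LNK coactivators, and RVE1 links the clock to auxin. RVE1 (AT5G17300) was at 4.97 and 4.79 FPKM in Col-0, 3.73 and 4.11 in dek3-2, 4.64 and 4.49 in dek4-2, and 3.57 and 4.02 in dd-2. All 6 mutant libraries lay below both Col-0 libraries, those of dek3-2 and dd-2 furthest; after median-of-ratios scaling those of dek4-2 overlapped Col-0. The log2 difference was -0.26 in dek3-2 (interval -0.53 to 0.01, limma adjusted p = 1), -0.08 in dek4-2 and -0.30 in dd-2 (interval -0.57 to -0.03, adjusted p = 0.231). RVE1 overlaps the opposite-strand gene AT5G17305 in the reference. RVE2 (AT5G37260), the highest of the family, was at 130.2 and 124 FPKM in Col-0, 113 and 113 in dek3-2, 117 and 112 in dek4-2, and 128 and 103 in dd-2. The single mutants lay below Col-0 (log2 differences of -0.16 and -0.15, adjusted p = 1 in each), while 1 dd-2 library lay within the Col-0 range and the other was the lowest of the 8. RVE6 (AT5G52660) was at 8.50 and 9.30 in Col-0, 9.83 and 9.13 in dek3-2, 9.21 and 10.7 in dek4-2, and 9.54 and 8.99 in dd-2, with overlap in each case (log2 difference 0.15 in dek4-2, adjusted p = 1). RVE4 (AT5G02840) ran from 56.3 to 67.8 and RVE8 from 3.54 to 5.74 FPKM. The 4 LNK genes were low. LNK1 (AT5G64170) ran from 1.44 to 2.93, LNK2 (AT3G54500) from 2.27 to 3.83, LNK3 (AT3G12320) from 0.243 to 0.852 and LNK4 (AT5G06980) from 1.02 to 2.28 FPKM. LNK1 was at 1.44 and 2.61 in Col-0 and at 2.93 and 2.88 in dd-2, a log2 difference of 0.40 with an interval from -0.12 to 0.92.

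ZTL (AT5G57360), FKF1 and LKP2 (AT2G18915) are F-box proteins with a blue-light sensing LOV domain, and GI (AT1G22770) is the large protein that stabilises them in light. GI was at 6.35 and 9.72 FPKM in Col-0, 8.90 and 8.58 in dek3-2, 7.83 and 9.71 in dek4-2, and 11.1 and 13.0 in dd-2. The dd-2 libraries were the highest, but the gap between the Col-0 libraries was itself wider than that from the higher of them to dd-2 replicate 1. The log2 difference was 0.56 ± 0.18 (limma adjusted p = 0.178), and it was 0.28 without Col-0 replicate 1 and 0.83 without Col-0 replicate 2. PRR7, GI, LNK1 and LNK4 were each higher in replicate 2 than in replicate 1 of Col-0, by over 1.5 times, and also higher in replicate 2 of dek4-2. FKF1 (AT1G68050) was at 21.8 and 21.6 FPKM in Col-0, 23.6 and 22.4 in dek3-2, 22.7 and 22.1 in dek4-2, and 24.4 and 25.1 in dd-2. Every mutant library exceeded both Col-0 libraries, by a little in the single mutants (log2 differences of 0.08 and 0.05) and more in dd-2 (0.19, interval 0.02 to 0.35, adjusted p = 0.226, and 0.10 after median-of-ratios scaling). ZTL, whose transcript hardly cycles while its protein does, was the steadiest member, from 36.5 to 40.0 FPKM, a highest-to-lowest ratio of 1.10. LKP2, in a locus merged with AT2G18917 and AT2G18920, ran from 13.0 to 14.6.

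CO (AT5G15840) activates FT in long days, COL1 and COL2 (AT3G02380) are its closest relatives, and the CDF proteins are DOF-type repressors of CO and FT. CO was at 4.61 and 5.49 FPKM in Col-0, 4.55 and 5.19 in dek3-2, 3.98 and 4.68 in dek4-2, and 4.83 and 5.11 in dd-2. Each mutant overlapped Col-0, and in dd-2 the log2 difference was -0.01 with an interval from -0.32 to 0.29 (limma adjusted p = 0.961). COL1 (AT5G15850) was at 16.0 and 17.8 in Col-0, 14.5 and 16.7 in dek3-2, 16.7 and 18.7 in dek4-2, and 14.1 and 13.2 in dd-2, where both libraries were the lowest. Its log2 difference in dd-2 was -0.28 from Col-0 (interval -0.52 to -0.04, adjusted p = 0.208) and -0.34 from dek4-2 (adjusted p = 0.303). The files merge COL1 with the opposite-strand gene AT5G15845, which also overlaps CO in the reference, so how fragments were shared is uncertain. CDF1 (AT5G62430) was at 1.92 and 2.27 FPKM in Col-0, 2.39 and 2.37 in dek3-2, 2.17 and 3.03 in dek4-2, and 3.50 and 3.36 in dd-2. The log2 difference of CDF1 was 0.52 ± 0.15 in dd-2 (limma adjusted p = 0.15) and 0.21 in dek4-2 (interval -0.14 to 0.56, adjusted p = 1). CDF3 (AT3G47500), given in full after its values were seen, was at 5.60 and 6.09 in Col-0, 6.32 and 5.72 in dek3-2, 5.53 and 6.70 in dek4-2, and 8.16 and 7.95 in dd-2. Its log2 difference in dd-2 was 0.40 ± 0.12 (adjusted p = 0.154). CDF2 (AT5G39660) ran from 4.74 to 6.75 outside dd-2 and was at 7.23 and 7.49 in it, CDF5 (AT1G69570) ran from 1.36 to 2.38 and COL2 from 5.49 to 8.46.

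GRP7 and GRP8 are glycine-rich RNA-binding proteins that form a slave oscillator by acting on their own transcripts. GRP7 (AT2G21660) was the most abundant member, with 1788 and 1442 FPKM in Col-0 and 1841 and 1970 in dd-2, and GRP8 (AT4G39260) had 378 and 368 in Col-0 and 411 and 409.7 in dd-2. Neither passed in dd-2 (log2 differences of 0.25 and 0.14, limma adjusted p = 0.295 and 0.379). The ratio of GRP7 to GRP8 lay between 3.87 and 4.81 in all 8 libraries. JMJD5 (AT3G20810), a histone demethylase-like protein of the evening loop, ran from 94.0 to 106 FPKM, and CHE (AT5G08330), a TCP factor that represses CCA1, from 15.4 to 19.9. In the reference LUX, BOA, LNK1, LNK3, FKF1 and COL2 also overlap a gene on the opposite strand, and the files merge LNK2 and CDF5 with a neighbour, so their values are uncertain to the extent that fragments were shared.

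Each single mutant was set against Col-0 to ask what 1 mutation does alone. In dek3-2 and in dek4-2, 0 of 32 members were called by limma (background 0.0421 and 0.021 percent) and 0 had an unadjusted p below 0.05 (background 3.44 and 1.97 percent). The median log2 difference of the members was -0.01 in dek3-2 and 0.04 in dek4-2, beside 0.04 and 0.00 over all genes. Without Col-0 replicate 1 these medians were -0.07 and -0.02, beside 0.02 and -0.01. Without Col-0 replicate 2 they were 0.06 and 0.06, beside 0.05 and 0.01. The largest differences were 0.26 in size in dek3-2 (RVE1) and 0.24 in dek4-2 (PRR7), and all 32 intervals lay within 2-fold in both. In dek3-2, 4 members were higher without overlap (LHY, RVE8, FKF1 and CDF1; background 20.9 percent) and 4 lower (RVE1, RVE2, RVE4 and ZTL; 10.1 percent), and in dek4-2 these were FKF1 and GRP8 (12 percent) against ELF4, RVE1, RVE2 and ZTL (12.1 percent). After median-of-ratios scaling there were 4 higher (background 15 percent) and 8 lower (14.3 percent) in dek3-2, and 7 higher (19 percent) and 0 lower (7.14 percent) in dek4-2, so that ELF4, RVE1, RVE2 and ZTL there overlapped Col-0. FKF1 is higher and RVE1, RVE2 and ZTL are lower in both on the deposited scale. After scaling FKF1, RVE8 and CDF1 are higher without overlap in both, and no member is lower in both. The mutants share the Col-0 libraries, so these are not independent. Between the libraries numbered 2 and those numbered 1, across genotypes, limma called 0 members (background 0.657 percent), with 3 at an unadjusted p below 0.05 (12.5 percent).

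The comparisons of dd-2 with each single mutant asked what the other mutation adds. By limma 0 of 32 were called against dek3-2 (background 0.0263 percent) and 0 against dek4-2 (0.0421 percent). At an unadjusted p below 0.05 there were 6 against dek3-2 (background 10.6 percent), all higher (6.66 percent), namely LUX, CDF3, PRR7, CDF2, CDF1 and GI. The members' median log2 difference from dek3-2 was 0.14, beside 0.03 over all genes. Without dek3-2 replicate 2 it was 0.10 beside 0.01, and without dd-2 replicate 1 it was 0.11 beside 0.04. Against dek4-2 there were 5 at an unadjusted p below 0.05 (12.4 percent), with LUX, CDF3, PRR7 and GI higher (9.1 percent) and COL1 lower (3.25 percent). After median-of-ratios scaling 2 were higher and 3 lower, while over all genes the split turned from 1731 higher and 618 lower to 642 and 1815. Without dek4-2 replicate 1 the members' median difference from dek4-2 was 0.08, beside 0.03 over all genes. Without dek4-2 replicate 2 it was 0.13 beside 0.11. All 11 evening genes lay above dek4-2 by estimate but 5 after median-of-ratios scaling, which moved the median over all genes from 0.07 to -0.04 and that of the members from 0.13 to 0.01. The PRR7 difference was 0.68 from dek3-2 and 0.59 from dek4-2 on the log2 scale. The 2 single mutants compared with each other gave 0 calls (background 0.0263 percent) and 0 at an unadjusted p below 0.05 (2.73 percent). The interaction, the effect of dek4-2 in plants carrying dek3-2 less its effect in the wild type, was called for 0 members (background 0.0158 percent), and 1 had an unadjusted p below 0.05 (3.64 percent), LUX at 0.26 with an interval from 0.02 to 0.50. After median-of-ratios scaling that number was 0 (666 of 19004 genes). By estimate 27 of 32 interactions lay above 0 (21 after median-of-ratios scaling), with a median of 0.14 beside 0.03 over all genes (0.06 beside -0.06 after that scaling). With 1 library left out, the members' median ran from 0.10 beside 0.02 (without Col-0 replicate 2) to 0.15 beside 0.05 (without dek3-2 replicate 1).

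Genes around the clock were counted from lists. As background, 12529 of all 19017 tested genes lay above 0 in dd-2, with a median of 0.08. Calls over all genes numbered 48 for dd-2, 8 for dek3-2 and 4 for dek4-2, each set against Col-0. Of 24 other clock components (23 tested), among them TIC, XCT, LWD1 and TPL, 0 were called in any mutant against Col-0 and 18 lay above 0 in dd-2, with a median of 0.11. Of 22 genes of light input and photoperiod signalling, among them the phytochromes, cryptochromes, COP1, the SPA genes and the PIF factors, 0 were called and 15 lay above 0 in dd-2 (median 0.06). In the latter list PIF4 and PIF5, growth-promoting basic helix-loop-helix factors that the evening complex is known to repress at night, are named after their values were seen. PIF4 was at 3.16 and 3.59 FPKM in Col-0, 3.25 and 2.49 in dek3-2, 5.38 and 4.14 in dek4-2, and 7.43 and 7.27 in dd-2, a log2 difference of 0.93 in dd-2 that did not pass limma (adjusted p = 0.0612). PIF5 was at 9.89 and 13.7 in Col-0, 13.4 and 10.2 in dek3-2, 12.1 and 14.2 in dek4-2, and 19.8 and 20.1 in dd-2 (0.73, adjusted p = 0.106). In both genes the dd-2 libraries were above the other 6.

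Of 6 rhythmic outputs 0 were called. Set against Col-0, 3 lay above 0 in dd-2 and 3 below, with a median log2 difference of 0.08 beside 0.08 over all genes. At an unadjusted p below 0.05 by limma, 1 was higher in dd-2 (background 12.7 percent) and 2 were lower (5.85 percent). Mean FPKM in Col-0 and dd-2 was 43.8 and 43.7 for COR27, 23.5 and 26.5 for COR28, and 8.64 and 10.2 for CAB2. FT was at 2.843 and 3.260 FPKM in dd-2 and from 3.603 to 5.555 in the other libraries. COR27, COR28, CAB2 and FT were added after their values were seen. CAT2 and CAT3, catalases whose transcripts usually peak in the morning and in the evening respectively, are named after their values were seen. CAT2 was at 884 and 899 FPKM in Col-0, 759 and 874 in dek3-2, 885 and 878 in dek4-2, and 645 and 635 in dd-2, the lowest 2 values (log2 difference -0.48, limma adjusted p = 0.0715). CAT3 was at 1638 and 1615 in Col-0, 1928 and 1493 in dek3-2, 1797 and 1891 in dek4-2, and 2705 and 2278 in dd-2, the highest 2 values (0.61, adjusted p = 0.0990). The ratio of CAT3 to CAT2, which does not depend on scaling between libraries, was 3.89 ± 0.429 (SD, n = 2) in dd-2, against 1.82 ± 0.0415 in Col-0, 2.13 ± 0.588 in dek3-2 and 2.09 ± 0.0880 in dek4-2.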

How the data were processed

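Whole-seedling RNA was sequenced from directional libraries, and the authors deposited 1 table per library with FPKM for each gene, per the file headers. Per the submitters' processing notes, the build was TAIR10 and the tools were HISAT2, featureCounts and edgeR, with no version; which program made the FPKM and whether libraries were scaled to each other is not given in the sources used here, nor whether counting used strand. Loci that the files merge over several genes cannot be separated. The members and gene lists were chosen with earlier results of these data known.

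For the tests a pseudocount of 1 was added to FPKM, log2 was taken, and limma 3.58.1 (R 4.3.3; variance trend, robust) was fitted to all 8 libraries, each of the 4 genotypes having its own mean. The 19017 genes averaging 1 FPKM or more entered, p was adjusted over all of them by Benjamini-Hochberg, and calls were made below 0.05. Differences on this scale understate the change of low genes. Intervals are 95 percent intervals from the same fit, not adjusted for the number of genes. The fit was tested on simulated data. The tables hold no counts, but between 99.6 and 99.9 percent of low values on single-exon genes fell within 0.15 of a whole fragment (30 percent by chance), with 24.4 to 34.3 fragments for 1 FPKM on 1 kb. This gave relative depth and approximate fragments per gene, which cover counting error only.

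Values in each library are given for CCA1, LHY, TOC1, LUX, GI and CO, for any member called, and for the 2 members with the smallest p in each direction in each mutant against Col-0; other names are stated as chosen after their values were seen or are given by range. PRR9, LNK1, GRP7, GRP8 and CDF3 are among those chosen after their values were seen. Promoters were read from RefSeq TAIR10.1: of 28629 genes with a locus of their own in the files, 99.997 percent overlapped the same gene there. The start was the outermost of the files' and the RefSeq start (for merged loci, the RefSeq start). Alternatives were median-of-ratios scaling, no filter, a pseudocount of 0.1, only the groups compared, a block for replicate number, omission of each library, no variance trend or robust estimation, and no organelle genes. Plots used matplotlib 3.10.9.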

Additional observations from a re-analysis of the deposited data

How the results depend on the processing

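No member was called in any of the 7 genotype comparisons under any alternative, except 1 (LUX, log2 difference 0.32, adjusted p = 0.0480) in dd-2 against Col-0 with the replicate number as a block. That fit was not preferred, because same-numbered libraries did not deviate together in every pair of genotypes (correlations from -0.07 to 0.23 over 6 pairs of genotypes); with it, the calls over all genes in this comparison numbered 305 instead of 48. PIF4 (0.93, adjusted p = 0.0371) and CAT2 (-0.48, adjusted p = 0.0425) also passed in dd-2 with the block. Replicate number went with differences over all genes in some fits but not in all. With the block, 125 of 19017 genes passed limma between the 2 numbers, and 305 in dd-2 against Col-0. The former rests on all 8 libraries and the latter on 2 libraries a group, so the counts are not alike. Between the 2 numbers, 0 genes passed without variance trend or robust estimation and 142 without organelle genes. The chloroplast share of FPKM was also tied to replicate number, at 1.79 to 1.87 percent for every replicate 2 but 1.19 to 1.43 for every replicate 1. Which of the 2 fits is better was not tested. Leaving out 1 library lowers the power of a fit that called no member with all 8 libraries, so calls under omission could not test these results. Between libraries numbered 2 and 1, no alternative called a member. Over all genes the calls in dd-2 against Col-0 ran from 11 to 305 over the alternatives, from 6 to 19 in dek3-2 (8 as reported) and from 3 to 11 in dek4-2 (4).

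For 23 differences of named genes under 15 alternatives, 339 of 345 values kept their direction and side of the threshold. The direction of LHY in dd-2 turned (-0.0549) without dd-2 replicate 1, and that of CO turned without Col-0 replicate 2 (0.0903) or dd-2 replicate 1 (0.0190); both were near 0, and leaving out 1 library gave LHY from -0.0549 to 0.26 and CO from -0.12 to 0.0903. PRR9, LNK3 and CCA1 rest on the fewest fragments (a counting error of 22.7, 22.0 and 15.3 percent). With 2 libraries a group, the 95 percent interval in dd-2 against Col-0 reached beyond 1.5-fold for 8 members.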
